A study of Mus musculus with 25 samples.

Results

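The ApoYap mouse carries human YAP under a doxycycline-dependent promoter (TRE-hYAP) and the doxycycline-dependent activator rtTA under an ApoE promoter (ApoE-rtTA), so that doxycycline water turns the human gene on in hepatocytes. Sorted hepatocytes of 3 such samples after 1 week of doxycycline (ApoYap Dox) were set against those of 4 untreated samples (ApoYap ctrl), which makes 7 of the 25 libraries of the series, and all expressed genes were described. Of 37117 genes in the table, 12715 had enough counts to be tested. ApoYap Dox mice drank 0.2 mg/ml doxycycline hyclate in 2.5% sucrose water. ApoYap ctrl mice had the same transgenes, no listed treatment and a WT effective genotype. Other libraries entered only differences of contrasts: 3 Lats1/2 KO samples (Lats1flox/flox; Lats2flox/flox, 1 week after Cre delivered by AAV8 under the hepatocyte promoter TBG) against 4 Lats1/2 flox ctrl samples with the same floxed alleles and no virus, and 4 BL/6 Dox samples (C57BL/6, the same doxycycline water for 1 week) against 4 untreated BL/6 ctrl samples. Livers were perfused and digested with collagenase, cells were sorted, and 500000 cells per sample were lysed. The labels give no age, sex, litter or batch and do not say that each sample is a separate mouse, so p-values measure the spread between these samples.

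YAP is a transcriptional coactivator without a DNA-binding domain of its own. It reaches DNA through the TEAD factors, and the Hippo kinases MST1/2 and LATS1/2 phosphorylate it, which holds it in the cytoplasm or sends it to degradation. In adult liver YAP protein is kept low in hepatocytes and higher in bile duct cells, and forced YAP activity in hepatocytes is known for liver enlargement, proliferation and loss of mature hepatocyte features. Several Hippo components, among them LATS2 and the angiomotins, are themselves YAP targets, which gives the pathway a negative feedback.

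Promoters of 5 genes that the results turn on are shown first, because they hold the sequence that TEAD factors are known to bind (GGAATG, or CATTCC on the other strand). Each run is the 250 bases before the annotated start, 5′ to 3′ in the direction of the gene, from RefSeq on GRCm38.p6; capitals mark that motif. GENCODE gives Amotl2 and Ankrd1 an earlier start as well, so their windows, drawn from the RefSeq start, lie inside the GENCODE gene. They lie at chr9:102717554-102717803 (+ strand, Amotl2), chr19:36119845-36120094 (- strand, Ankrd1), chr8:65037337-65037586 (- strand, Apela), chr3:145649986-145650235 (- strand, Ccn1), chr16:65814939-65815188 (+ strand, Vgll3).
Ccn1: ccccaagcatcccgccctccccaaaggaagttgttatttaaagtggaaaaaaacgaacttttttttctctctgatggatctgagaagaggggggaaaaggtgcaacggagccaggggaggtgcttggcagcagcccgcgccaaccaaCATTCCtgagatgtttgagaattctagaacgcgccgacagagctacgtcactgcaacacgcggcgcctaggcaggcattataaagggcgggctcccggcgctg
Ankrd1: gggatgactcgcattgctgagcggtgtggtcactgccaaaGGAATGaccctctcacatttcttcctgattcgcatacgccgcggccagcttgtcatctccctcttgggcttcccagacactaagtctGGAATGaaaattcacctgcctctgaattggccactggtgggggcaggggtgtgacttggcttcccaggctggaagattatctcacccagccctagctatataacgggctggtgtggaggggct
Amotl2: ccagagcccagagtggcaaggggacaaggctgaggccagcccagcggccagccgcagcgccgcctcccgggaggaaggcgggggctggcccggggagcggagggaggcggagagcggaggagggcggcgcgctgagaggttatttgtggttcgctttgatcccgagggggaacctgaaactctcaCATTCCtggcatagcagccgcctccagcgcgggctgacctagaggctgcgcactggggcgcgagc
Vgll3: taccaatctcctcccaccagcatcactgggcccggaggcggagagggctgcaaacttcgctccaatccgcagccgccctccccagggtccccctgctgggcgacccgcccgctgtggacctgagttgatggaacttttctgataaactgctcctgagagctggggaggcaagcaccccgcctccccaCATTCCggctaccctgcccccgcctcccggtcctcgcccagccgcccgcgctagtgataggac
Apela: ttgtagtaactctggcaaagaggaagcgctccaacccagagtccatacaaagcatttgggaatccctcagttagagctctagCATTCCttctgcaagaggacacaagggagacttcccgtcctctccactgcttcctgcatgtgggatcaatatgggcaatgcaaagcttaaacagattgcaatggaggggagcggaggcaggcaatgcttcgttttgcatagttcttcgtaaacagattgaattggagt
Ankrd1 held the motif at 210 and 123 bases before the start on the strand of the gene, and the others held it once on the opposite strand, 103 bases before the start in Ccn1, 65 in Amotl2, 63 in Vgll3 and 168 in Apela. Over windows of 300 bases, which reach 50 bases past the start, the motif was sought on either strand. It was found in 8 of 17 windows of the tested YAP target signature genes (47.1%). The share was 12.3% of the 12598 windows of all genes tested and 14.7% of all 32851 windows. The motif stood in 607 of 4722 windows of genes called higher, 536 of 4138 of those called lower and 408 of 3738 of those not called. A match of 6 letters is a description of the window and not a binding site. The signature was drawn from genes known as YAP targets, and RefSeq windows were matched by symbol for 15 of its 20 tested members and for 9834 of all 12715 tested genes; Ccn2 was not among them.

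Each ApoYap Dox library held 11298979 to 15619135 counts and each ApoYap ctrl library 9833816 to 15587774, so depth overlapped, and 1 count was worth 0.0441 to 0.059 CPM (counts scaled to library size) in ApoYap Dox and 0.0869 to 0.128 in ApoYap ctrl. The make-up differed: the 10 most abundant genes took 17.1 to 21.0% of counts in ApoYap Dox and 30.01 to 34.2% in ApoYap ctrl, and 16550 to 17077 genes had a count in ApoYap Dox libraries, against 14506 to 14818 in ApoYap ctrl. Scaling by trimmed means (TMM) therefore used factors of 1.38 to 1.502 in ApoYap Dox and 0.739 to 0.797 in ApoYap ctrl, and dividing by total counts alone moves every log2 fold change up by about 0.926, which turns round genes and lists that lie between 0 and that value below 0; where a list turns round, its counts under both scalings are given. Markers of other liver cells were higher in ApoYap Dox libraries, although the sort was for hepatocytes. All 21 Kupffer cell and macrophage markers rose, with a summed level of 15280 to 26860 unscaled CPM in ApoYap Dox, against 125 to 289.8 in ApoYap ctrl. All 21 sinusoidal endothelial markers rose, at 1802 to 3377 unscaled CPM in ApoYap Dox, against 100.5 to 253 in ApoYap ctrl, and 10 of 18 stellate cell and fibroblast markers rose, at 328 to 559.6 unscaled CPM in ApoYap Dox, against 68.00 to 158 in ApoYap ctrl. The 6 tested cholangiocyte markers summed with the rest of their list to 419.7 to 627 unscaled CPM in ApoYap Dox, against 42.02 to 55.3 in ApoYap ctrl, and of these 6 genes 4 rose and 1 fell, with a median of 2.68. Of the defining markers, which did not pass the filter, Krt19 had 13, 10 and 8 counts in ApoYap Dox and 4, 1, 2 and 3 in ApoYap ctrl, and Epcam had 8, 8 and 7 counts in ApoYap Dox and 1, 0, 1 and 0 in ApoYap ctrl. Neutrophil markers summed to 22.9 to 60.3 unscaled CPM in ApoYap Dox, against 0.257 to 1.52 in ApoYap ctrl, with Ly6g at 0 in all 7 libraries. The 15 hepatocyte markers summed to 58860 to 77330 unscaled CPM in ApoYap Dox, against 74940 to 89000 in ApoYap ctrl, a sum carried by a few abundant genes such as Alb. Of these 15 genes, 14 fell and none rose, with a median log2 fold change of −1.99 and the lowest at −5.02. In such bulk samples fewer cells of a type and less RNA per cell cannot be told apart, and the part of these other cells in the gene results was not tested.

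**Figure D1:**
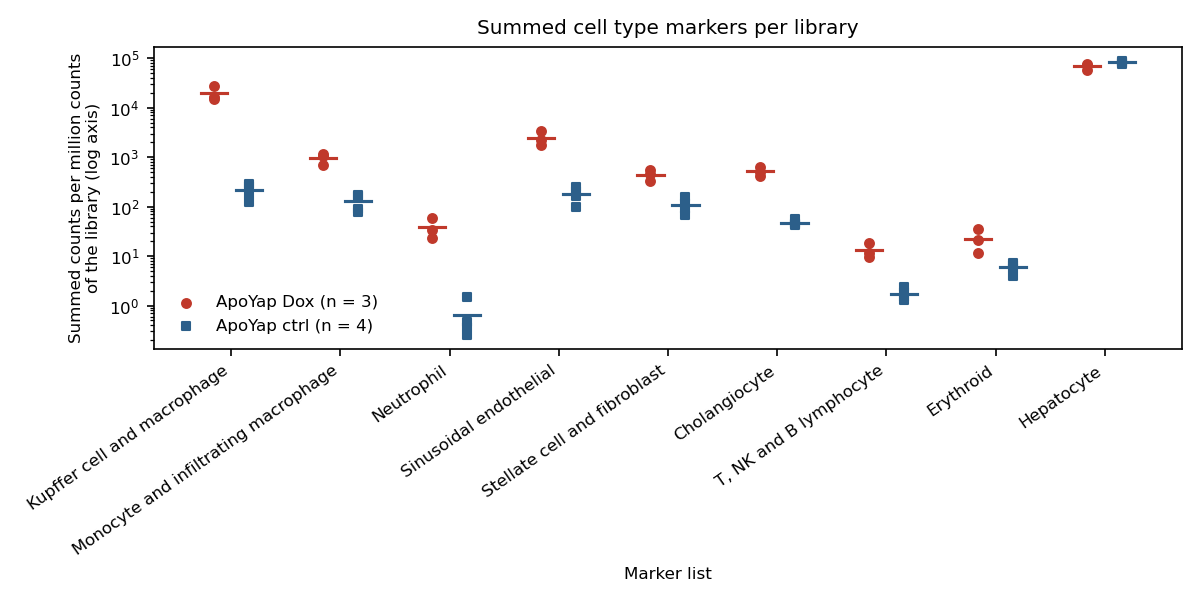
Summed unscaled CPM of the marker genes of each cell type (log axis), with ApoYap Dox libraries on the left and ApoYap ctrl libraries on the right of each pair and 1 point per library. Macrophage markers sit at 15280 to 26860 in ApoYap Dox, against 125 to 290 in ApoYap ctrl, and the hepatocyte sums, carried by a few abundant genes, at 58860 to 77330 in ApoYap Dox, against 74940 to 89000 in ApoYap ctrl, although 14 of the 15 hepatocyte markers fell.

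With edgeR's quasi-likelihood test and a Benjamini-Hochberg adjusted p under 0.05, which all adjusted p-values here follow, 4698 genes were higher in ApoYap Dox (36.9%) and 4174 lower (32.8%), and the median log2 fold change of all tested genes was 0.08. The rises were larger than the falls: 1556 genes called higher had a log2 fold change of at least 3 and 385 called lower had one of at most −3, and the medians of the called genes were 1.79 and −1.11. Of the tested genes, 96 had no count in any ApoYap ctrl library and 12 had none in any ApoYap Dox library. Such genes pass the filter only through the group where they are high, and their folds rest on the counting floor. The part of the filter in this asymmetry was not tested. Direction went with abundance. Of the 57 genes with a mean of at least 1000 CPM in ApoYap Dox 18 rose and 33 fell, and of the 118 at that level in ApoYap ctrl 2 rose and 110 fell; choosing genes by the level in 1 group favours higher values in that group. Among genes with an average log2 CPM under 2, 44.2% were called higher and 16.1% lower; among those above 8 the shares were 22.3% and 68.5%. With 69.8% of all genes called, a list in which about that share is called is no different from the background, and the lists below are read against these percentages. The scaled CPM of the groups did not overlap for 37.3% of all tested genes upward and 32.9% downward. A lack of overlap, where given below for a gene, is therefore common here.

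**Figure D2:**
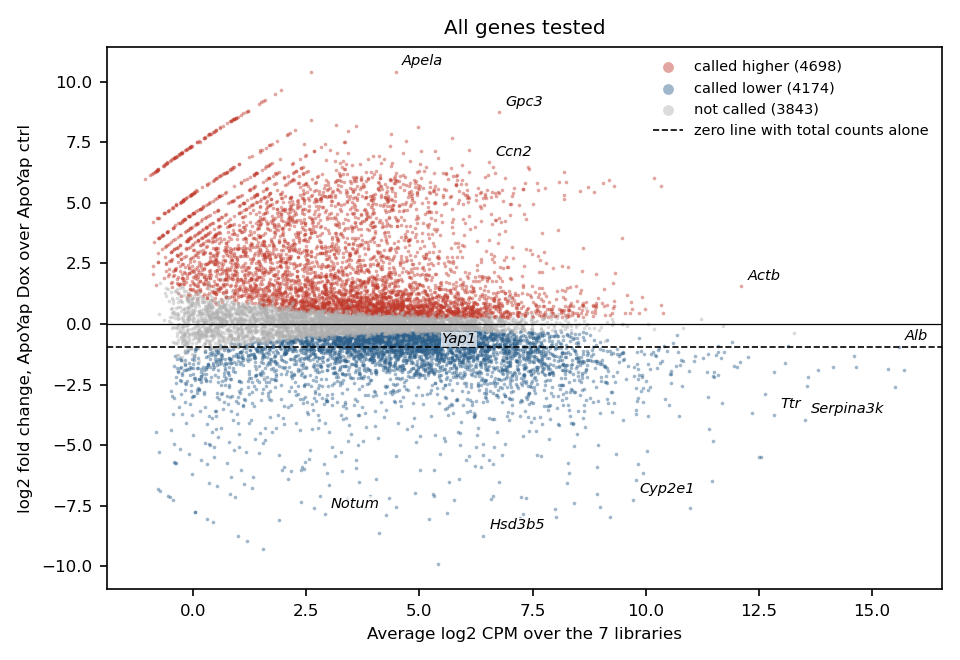
Log2 fold change of ApoYap Dox over ApoYap ctrl (vertical axis) against average log2 CPM (horizontal axis) for 12715 genes, coloured by call, with named genes marked. The most abundant genes lie mainly below 0 and the largest rises are among genes of low abundance; the dashed line shows where 0 would lie if total counts alone were used for scaling.

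The mouse Yap1 transcript fell under TMM scaling, and the genes for YAP's DNA-binding partners changed in both directions. Yap1 stood at 30.3, 24.6 and 20.8 CPM in ApoYap Dox 1 to 3, against 50.4, 51.5, 50.8 and 57.7 CPM in ApoYap ctrl 1 to 4. All ApoYap Dox values lay below all ApoYap ctrl values, and the log2 change was −1.06 (SE 0.14, adjusted p = 2.6e-05). This fall was close in size to the shift between scalings (0.926), so its size rests on the TMM scaling. The separation of the groups rests on it too, since they overlap when the TMM factors are left out. The genome used for alignment was mouse, the labels do not describe the 3′ end of the transgene, and its RNA was not analysed here, so this row is no measure of the induced human YAP. Of 8 tested genes for YAP, its paralogue TAZ (Wwtr1), the TEAD factors and their VGLL cofactors, 5 rose and 2 fell. Wwtr1 rose by 0.79 and Tead1 by 1.63 on the log2 scale. Tead4 had 122, 122 and 77 counts in ApoYap Dox 1 to 3, against 0, 0, 0 and 2 in ApoYap ctrl 1 to 4, which is a count ratio of 103 (95% interval 28.4 to 857). Vgll3, a cofactor that competes with YAP for the same face of TEAD, had 142, 89 and 93 counts in ApoYap Dox and none in ApoYap ctrl, at least 69.5-fold higher when the control group is set at 3 counts. Tead2 also rose, with 91 counts in ApoYap Dox and 3 in ApoYap ctrl, a count ratio of 19.5 (95% interval 6.47 to 96.5). Tead3 fell by 0.88 on the log2 scale, a fall smaller than the shift between scalings, and the call was lost when ApoYap Dox 1, ApoYap Dox 3 or ApoYap ctrl 2 was left out (−0.85 to −0.64, adjusted p = 0.0508 to 0.0735). Vgll4, a repressor of TEAD, lay at −0.27 and was not called, although the call was made without ApoYap ctrl 2 (−0.32, adjusted p = 0.0292). Vgll1 and Vgll2 had no count in any of the 7 libraries.

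Genes of the Hippo pathway upstream of YAP were mostly higher. Of 29 tested, 18 rose and 5 fell, with a median of 0.999. The core kinases moved little or apart: Stk4 (the kinase MST1) rose by 1.201, Stk3 (MST2) rose by 0.38, Lats2 rose by 1.49 and Lats1 fell by 0.42, less than the shift between scalings. For Stk3 the call was lost when ApoYap Dox 1, ApoYap Dox 3, ApoYap ctrl 1, ApoYap ctrl 2 or ApoYap ctrl 4 was left out (0.32 to 0.37, adjusted p = 0.055 to 0.0946), and for Lats1 the call was lost when ApoYap Dox 1, ApoYap Dox 3 or ApoYap ctrl 3 was left out (−0.39 to −0.35, adjusted p = 0.0523 to 0.0735). Their scaffolds rose, Sav1 by 1.34 and Mob1a by 1.55, while Mob1b fell by 0.899, again less than that shift. All 3 angiomotin genes, which tether YAP at junctions, rose, Amotl2 by 3.15, Amotl1 by 2.74 and Amot by 1.76. Amotl2 stood at 118, 123 and 68.8 CPM in ApoYap Dox 1 to 3, against 14.2, 12.1, 9.07 and 10.8 CPM in ApoYap ctrl 1 to 4. No ApoYap Dox library overlapped with the control range. The LIM proteins that hold LATS at junctions split, with Wtip higher by 4.16 and Ajuba by 2.801 and Limd1 not called. Ptpn14, a phosphatase that binds YAP, rose by 3.84, the WWC scaffolds Wwc1 and Wwc2 (KIBRA family) by 1.08 and 1.44, and the kinase Map4k4 by 2.96. Nf2, which encodes the upstream regulator merlin, was not called. The protocadherin genes moved in opposite directions: Dchs1 rose by 2.58 and Fat1 fell by 1.07. The symbol Mst1 in the mouse table is macrophage-stimulating protein, a ligand made by hepatocytes and not the kinase, and it fell by 1.51.

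Of 20 tested genes of a widely used YAP target signature, 16 rose, 1 fell and 3 passed neither way (median 2.42); these genes are known YAP targets, so the list is a check of the induction. Ccn2 stood at 223, 216 and 196 CPM in ApoYap Dox 1 to 3, against 1.998, 1.65, 3.19 and 1.48 CPM in ApoYap ctrl 1 to 4. Ccn1 stood at 208, 228 and 188 CPM in ApoYap Dox 1 to 3, against 11.1, 14.2, 12.8 and 8.75 CPM in ApoYap ctrl 1 to 4. Both encode matricellular proteins that bind integrins, and neither overlapped between groups. On the log2 scale the change was 6.68 (SE 0.19, adjusted p = 1.0e-09) for Ccn2 and 4.15 (SE 0.16, adjusted p = 3.8e-09) for Ccn1. Ankrd1 stood at 15.3, 20.6 and 13.9 CPM in ApoYap Dox 1 to 3, against 0, 0.927, 0.511 and 0.862 CPM in ApoYap ctrl 1 to 4. This ankyrin-repeat nuclear protein was close to the counting floor in controls, and its fold of 4.91 (SE 0.44, adjusted p = 2.3e-06) rests on that floor. Axl stood at 276, 245 and 393 CPM in ApoYap Dox 1 to 3, against 4.78, 5.36, 7.15 and 7.76 CPM in ApoYap ctrl 1 to 4. The receptor tyrosine kinase AXL is also a gene of macrophages, so this rise of 5.62 moves with the macrophage marker sum, and ApoYap Dox 3, the library with the highest macrophage sum, was the highest for Axl. Myof, for the membrane-repair protein myoferlin, rose by 5.71, Tgfb2 by 4.14, Gadd45b, a stress sensor, by 4.04, and the BMP-binding protein gene Crim1 by 2.04. Nt5e stood at 1.37, 0.994 and 0.472 CPM in ApoYap Dox 1 to 3, against 2.17, 3.504, 3.704 and 3.33 CPM in ApoYap ctrl 1 to 4. The ecto-enzyme CD73 encoded by Nt5e was thus the signature gene that fell, at −1.703 (SE 0.39, adjusted p = 0.00215), with no overlap. Arhgef17 at 0.37, Igfbp3 at 0.39 and Dock5 at −0.34 were not called, and Foxf2 and Fjx1 did not pass the filter.

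**Figure D3:**
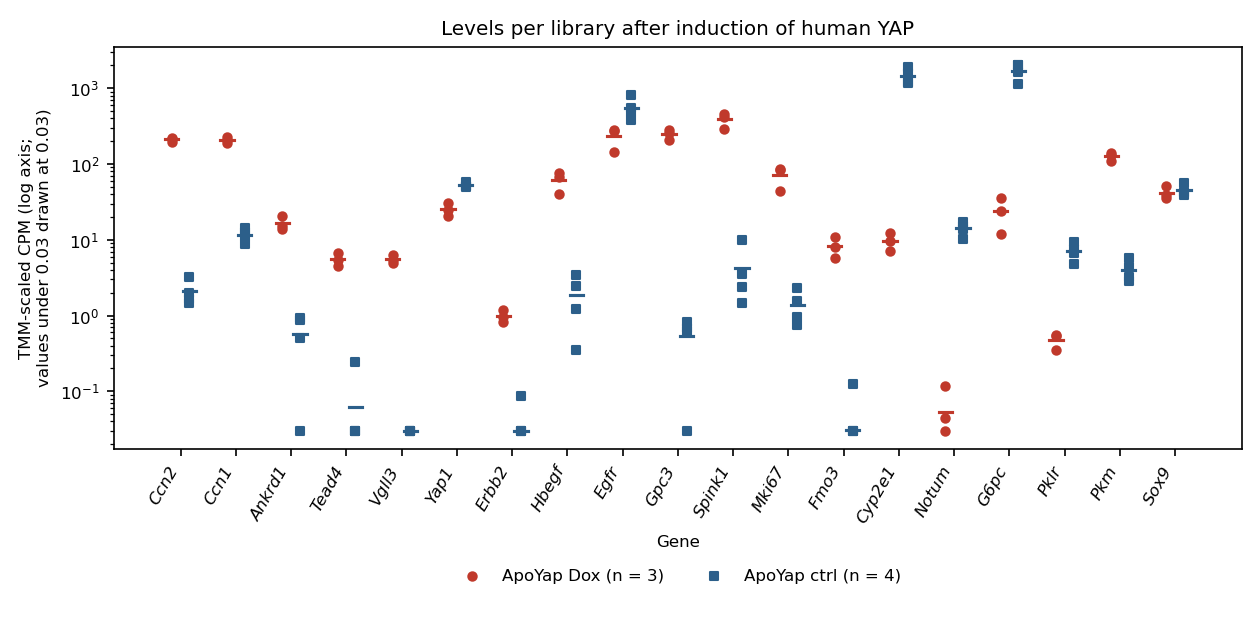
Scaled CPM per library on a log axis for 19 genes, with ApoYap Dox libraries left of ApoYap ctrl libraries 1 point per library, bars for the means and values under 0.03 drawn at 0.03. Ccn2, Ccn1, Ankrd1, Hbegf, Gpc3, Spink1, Mki67 and Pkm are higher in all ApoYap Dox libraries, Yap1, Egfr, Cyp2e1, Notum, G6pc and Pklr are lower in all of them, and Sox9 overlaps.

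Immediate early transcription factors, which form or act beside AP-1, were higher: 17 rose and 0 fell of 19 tested, with a median log2 fold change of 1.93. Klf6 rose by 4.55, Ier3 by 5.26, Fosb by 3.47, Nr4a1 by 3.21, Myc by 2.91 and Fos by 2.31, while 2 of 19 were not called. Egr2 is described by its counts, with 495 counts in ApoYap Dox and 3 in ApoYap ctrl, a count ratio of 106 (95% interval 36.1 to 517).

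Growth factor genes of the EGF family changed on both the ligand and the receptor side. Of 10 tested, 5 rose and 4 fell, against 36.9% and 32.8% of all genes. Their median of 0.48 turned to −1.19 when genes needed 10 CPM in 3 libraries. Hbegf stood at 40.6, 67.4 and 76.7 CPM in ApoYap Dox 1 to 3, against 0.348, 1.24, 2.43 and 3.45 CPM in ApoYap ctrl 1 to 4. Heparin-binding EGF, a ligand of EGFR and ERBB4, was higher in every ApoYap Dox library, with a log2 change of 5.14 (SE 0.44, adjusted p = 3.2e-06). Nrg1, a ligand of ERBB3 and ERBB4, had 122, 120 and 98 counts in ApoYap Dox and 1, 1, 0 and 1 in ApoYap ctrl, a count ratio of 72.97 (95% interval 24.8 to 356). Tgfa rose by 1.34, Nrg4 fell by 1.13 and Btc stood at −0.39, not called; for Nrg4 the call was lost without ApoYap Dox 1 (−0.996, adjusted p = 0.0521). Egfr stood at 276, 279 and 142 CPM in ApoYap Dox 1 to 3, against 545, 819.6, 484 and 377 CPM in ApoYap ctrl 1 to 4. The EGF receptor, abundant on adult hepatocytes, fell by 1.26 (SE 0.30, adjusted p = 0.00369), and no library overlapped. This fall was little larger than the shift between scalings (0.926). Its size and the separation of the groups rest on the TMM scaling, since the groups overlap when the TMM factors are left out. Erbb3 fell by 1.77, as did Errfi1, an intracellular inhibitor of EGFR, (−2.52), whereas Erbb4 rose by 1.39, and for Erbb4 the call was lost without ApoYap Dox 2 (0.899, adjusted p = 0.0769). Erbb2, which adult hepatocytes hardly express, had 22, 15 and 20 counts in ApoYap Dox and 1, 0, 0 and 0 in ApoYap ctrl, a ratio of 36.7 (6.33 to 1475), which stays a low level. Areg, an EGF ligand often named as a YAP target, did not pass the filter, with 0, 4 and 1 counts in ApoYap Dox and 0, 0, 3 and 0 in ApoYap ctrl.

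Apela had the largest fitted rise among genes averaging at least 2 on the log2 CPM scale. It encodes a small secreted peptide hormone of the apelin receptor, known from early embryos, and had 2843 counts in ApoYap Dox and 1 in ApoYap ctrl, a count ratio of 1830 (95% interval 328 to 72320). Apela stood at 50.99, 33.7 and 63.6 CPM in ApoYap Dox 1 to 3, against 0, 0, 0.128 and 0 CPM in ApoYap ctrl 1 to 4. Its receptor gene Aplnr had 1, 1 and 4 counts in ApoYap Dox and none in ApoYap ctrl. The list of HGF, FGF, PDGF and VEGF genes also holds Apela and Kitl. Of its 21 tested genes 9 rose and 7 fell, with a median of 0.39, shares near those of all genes (36.9% and 32.8%). Ligands that rose were Hgf (2.53), Kitl (3.77) and the stress hormone Fgf21 (3.399), and the endothelial receptors Kdr and Flt1 rose by 2.63 and 2.31 beside the endothelial markers. Receptors of hepatocytes fell: Met, the HGF receptor, (−1.098), Fgfr4 (−0.93) and its partner Klb (−1.33), of which Fgfr4 lay at the shift between scalings and was at −0.0035 and not called with total counts alone. Vegfa fell by 1.21. Met and Vegfa fell by little more than that shift, so the size of these falls depends on the scaling.

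The endocrine IGF axis of the liver was mostly lower, with 4 of 21 tested genes up and 10 down (median −0.49), although total counts alone gave 9 higher and 6 lower. The growth hormone receptor Ghr fell by 3.35, as did Igf1 (−1.64) and its carrier Igfals (−3.02), by more than the shift between scalings. Igfbp2 stood at 6.48, 5.75 and 3.25 CPM in ApoYap Dox 1 to 3, against 180.4, 157, 181 and 176 CPM in ApoYap ctrl 1 to 4. This IGF-binding protein fell by 5.06 (SE 0.21, adjusted p = 7.2e-09) with no overlap. The IGF1 receptor gene Igf1r, low in adult hepatocytes, rose by 3.61. Igf2 did not pass the filter, with 1, 2 and 4 counts in ApoYap Dox and 2, 2, 0 and 0 in ApoYap ctrl.

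Notch, TGF beta and Wnt genes behaved differently from each other. Of 12 tested Notch genes 7 rose and 1 fell. Jag1 stood at 44.6, 41.4 and 26.1 CPM in ApoYap Dox 1 to 3, against 1.998, 2.27, 4.09 and 3.08 CPM in ApoYap ctrl 1 to 4. Jag1, the ligand that drives biliary fate, was higher without overlap by 3.74 (SE 0.25, adjusted p = 1.9e-07), the Notch feedback gene Nrarp rose by 4.64, and the target Hey1 had 195 counts in ApoYap Dox and 3 in ApoYap ctrl, a count ratio of 41.9 (95% interval 14.1 to 205). Hes1 stood at 0.92 and was called higher, and Hes6 fell by 3.18. Sox9 stood at 51.4, 35.9 and 38.7 CPM in ApoYap Dox 1 to 3, against 41.2, 42.5, 38.95 and 56.3 CPM in ApoYap ctrl 1 to 4. Sox9, the transcription factor of bile duct cells and of hepatocytes turning biliary, overlapped between groups, at −0.09 on the log2 scale (SE 0.16, adjusted p = 0.64). That miss does not show equal levels. Among TGF beta, activin and BMP genes 19 rose and 5 fell of 31 tested, with a median log2 fold change of 0.67. The ligands Tgfb1 and Tgfb2 rose by 5.34 and 4.14, and the BMP targets Id1 and Id3 by 4.67 and 2.97. The hepatocyte activins Inhbc (−1.32) and Inhbe (−1.64) fell, and the activin antagonist Fst fell by 2.301. Of 23 tested Wnt genes, 4 rose and 10 fell (median −0.48), with 9 higher and 6 lower under total counts alone. Genes induced by Wnt signalling around the central vein were lower by more than the scaling shift: Lgr5 stood at 0.176, 0 and 0.118 CPM in ApoYap Dox 1 to 3, against 2.26, 2.58, 3.96 and 2.46 CPM in ApoYap ctrl 1 to 4. Lgr5, the R-spondin receptor, fell by 4.64 (SE 0.58, adjusted p = 2.0e-05), as did Tbx3 (−3.88) and Lgr4 (−2.27), and the secreted Wnt inhibitor Notum had 3 counts in ApoYap Dox and 512 in ApoYap ctrl, a count ratio of 0.00377 (95% interval 0.000775 to 0.0111). Sp5 had 0 counts in ApoYap Dox and 46 in ApoYap ctrl, at least 23.8-fold lower when set against 3 counts over the group.

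Cell cycle genes were higher at every stage that was listed. Among cyclins and cyclin-dependent kinases 23 rose and 1 fell of 26 tested, with a median log2 fold change of 2.21; among replication genes 28 rose and 1 fell of 34 tested, with a median log2 fold change of 1.86; and among spindle, kinetochore and cytokinesis genes 35 rose and 0 fell of 36 tested, with a median log2 fold change of 4.72. Only Spc24, at 0.46, was not called in the spindle list, and the call was made when ApoYap Dox 3 or ApoYap ctrl 1 was left out (0.54 to 0.66, adjusted p = 0.0043 to 0.0493). Ccnd1 stood at 130.1, 119 and 103 CPM in ApoYap Dox 1 to 3, against 15.6, 8.76, 14.2 and 7.76 CPM in ApoYap ctrl 1 to 4. Cyclin D1, which starts the cycle in hepatocytes, rose by 3.34 (SE 0.22, adjusted p = 2.2e-07) with no overlap. Mki67 stood at 85.8, 82.8 and 44.3 CPM in ApoYap Dox 1 to 3, against 0.956, 1.55, 2.299 and 0.739 CPM in ApoYap ctrl 1 to 4. This proliferation marker lay at 5.703 (SE 0.34, adjusted p = 2.0e-07), again with no overlap. Cdk1 rose by 4.09, Lig1 by 4.36, Mcm5 by 4.03, the kinase Ttk by 4.91, Racgap1 by 5.12 and Cit by 5.77. Mcm10, a replication initiator, went against its list and fell by 2.17.

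Inhibitors of the cycle and death genes rose together with the cycle genes. Cdkn1a stood at 231, 228 and 175 CPM in ApoYap Dox 1 to 3, against 34.8, 63.4, 51.3 and 21.7 CPM in ApoYap ctrl 1 to 4. The inhibitor p21 encoded by Cdkn1a rose by 2.305 (SE 0.30, adjusted p = 6.4e-05), and Cdkn2a, which gives p16 and p19ARF, had 265 counts in ApoYap Dox and 3 in ApoYap ctrl, a count ratio of 56.9 (95% interval 19.2 to 278). Of 25 tested p53 target genes 17 rose and 6 fell, with a median of 0.91. Pmaip1 (NOXA) rose by 6.18 and Phlda3 by 5.28, whereas Bbc3 (PUMA) fell by 1.13, as did Ei24 (−1.43). Mdm2, the p53 feedback gene, rose by 0.87. Among death receptor and apoptosis regulators 21 rose and 3 fell of 28 tested, with a median log2 fold change of 1.26. Both protective genes (Mcl1 2.14, Bcl2 4.74) and death genes (Ripk3 5.73, Casp1 4.32) rose. Tnfrsf12a, the TWEAK receptor that hepatocytes induce on injury, rose by 3.09. Ripk3, Casp1 and Bcl2 are also genes of macrophages and other leukocytes, whose marker sums moved the same way.

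Cytoskeleton and matrix genes rose and epithelial junction genes were split. Among actin, myosin and focal adhesion genes 36 rose and 2 fell of 44 tested, with a median log2 fold change of 1.59. Actb stood at 6848, 7530.4 and 7010.1 CPM in ApoYap Dox 1 to 3, against 2336, 2438, 2419 and 2333 CPM in ApoYap ctrl 1 to 4. Beta-actin rose by 1.58 and was among the 10 genes with the largest gain in library share. Filamin A (Flna) rose by 5.03, Anxa2 by 4.51, Ezr by 3.48 and S100a11 by 5.46. Rdx, the ezrin relative of hepatocyte canaliculi, fell by 0.71, less than the shift between scalings. Of 11 tested integrin genes 9 rose and none fell, among them Itga6 (1.89), Itga3 (1.55) and Itgav (1.06). The keratins of hepatocytes, Krt8 and Krt18, rose by 1.09 and 1.27. The squamous keratin Krt4 had 1542 counts in ApoYap Dox and 3 in ApoYap ctrl, a count ratio of 331 (95% interval 113 to 1606), and the biliary keratins Krt7 and Krt19 stayed below the filter.

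Of 23 tested genes of claudins, cadherins, connexins and other junction proteins, 5 rose and 13 fell (median −0.55), with 12 higher and 9 lower under total counts alone. Cdh1 stood at 69.96, 76.7 and 51.7 CPM in ApoYap Dox 1 to 3, against 256, 264, 227 and 269.6 CPM in ApoYap ctrl 1 to 4. E-cadherin fell by 1.94 (SE 0.15, adjusted p = 3.5e-07), as did the hepatocyte connexin Gjb1 (−2.13), both beyond the scaling shift, as did the claudins Cldn1 (−1.97) and Cldn2 (−2.01). Gja1 (connexin 43), typical of non-parenchymal and immature cells, rose by 2.93. Among collagens, laminins and matrix glycoproteins 24 rose and 6 fell of 32 tested, with a median log2 fold change of 1.65. Basement membrane genes made by endothelial cells rose (Nid1 4.63, Hspg2 3.01, Lamb2 4.43), and genes secreted by hepatocytes fell (Vtn (−1.5002), Lamb3 (−3.75), Col18a1 (−1.34)). Spp1, osteopontin, rose by 5.39. Endothelial and stellate marker sums moved in the same direction as this list.

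Fetal liver and oncofetal genes were higher, with 10 of 15 tested up, 2 down and a median of 1.87. Gpc3 stood at 278, 258 and 206 CPM in ApoYap Dox 1 to 3, against 0.695, 0.824, 0 and 0.616 CPM in ApoYap ctrl 1 to 4. Glypican 3, a fetal and liver-cancer proteoglycan, rose by 8.76 (SE 0.30, adjusted p = 4.5e-09). Spink1 stood at 458, 420.3 and 286 CPM in ApoYap Dox 1 to 3, against 2.35, 9.79, 3.58 and 1.48 CPM in ApoYap ctrl 1 to 4. This secreted trypsin inhibitor rose by 6.48 (SE 0.52, adjusted p = 9.7e-06), and neither gene overlapped. The chromatin protein Hmga2 rose by 5.16, and the RNA-binding protein Igf2bp1 had 356 counts in ApoYap Dox and 1 in ApoYap ctrl, a count ratio of 229 (95% interval 40.9 to 9078), whereas its paralogues Igf2bp2 at 0.49 and Igf2bp3 at 0.46 were not called. Afp stood at 8.51, 5.86 and 4.25 CPM in ApoYap Dox 1 to 3, against 1.22, 2.47, 1.53 and 1.48 CPM in ApoYap ctrl 1 to 4. Alpha-fetoprotein, the classic fetal serum protein, rose by 1.89 (SE 0.32, adjusted p = 2.6e-04), at low levels. H19, below the filter, had 13, 9 and 71 counts in ApoYap Dox and 4, 0, 0 and 0 in ApoYap ctrl, so most of its counts came from ApoYap Dox 3. Ahsg, which is abundant in both fetal and adult liver, fell by 1.899.

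Transcription factors of the mature hepatocyte were mostly lower, although most of those falls were small. Of 26 tested nuclear receptors 6 rose and 14 fell (median −0.51), and of 26 other hepatocyte factors 3 rose and 17 fell (median −0.75); under total counts alone the nuclear receptors had 13 higher and 8 lower and the other factors 10 higher and 6 lower. Hnf4a stood at 131, 158 and 119 CPM in ApoYap Dox 1 to 3, against 342, 318, 337 and 328 CPM in ApoYap ctrl 1 to 4. Hnf4a, the central regulator of hepatocyte identity, fell by 1.28 (SE 0.12, adjusted p = 2.4e-06) with no overlap. Nr0b2 stood at 1.32, 0.276 and 0.944 CPM in ApoYap Dox 1 to 3, against 39.5, 71.2, 62.96 and 55.2 CPM in ApoYap ctrl 1 to 4. SHP, the bile-acid-induced repressor encoded by Nr0b2, fell by 6.02 (SE 0.37, adjusted p = 2.5e-07). The xenobiotic receptor Nr1i2 (PXR) fell by 1.49, as did Cebpa (−1.395), Foxa2 (−1.39), the carbohydrate-response factor Mlxipl (−1.79) and Creb3l3 (−2.399). Cux2 stood at 6.84, 17.5 and 10.03 CPM in ApoYap Dox 1 to 3, against 0.174, 0.206, 0.255 and 0.616 CPM in ApoYap ctrl 1 to 4. This factor, female-biased in mouse liver, rose by 5.22 (SE 0.47, adjusted p = 1.5e-06), and Gata4, Cebpd and Nr2f1 rose by 0.81, 1.59 and 2.83.

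**Figure D4:**
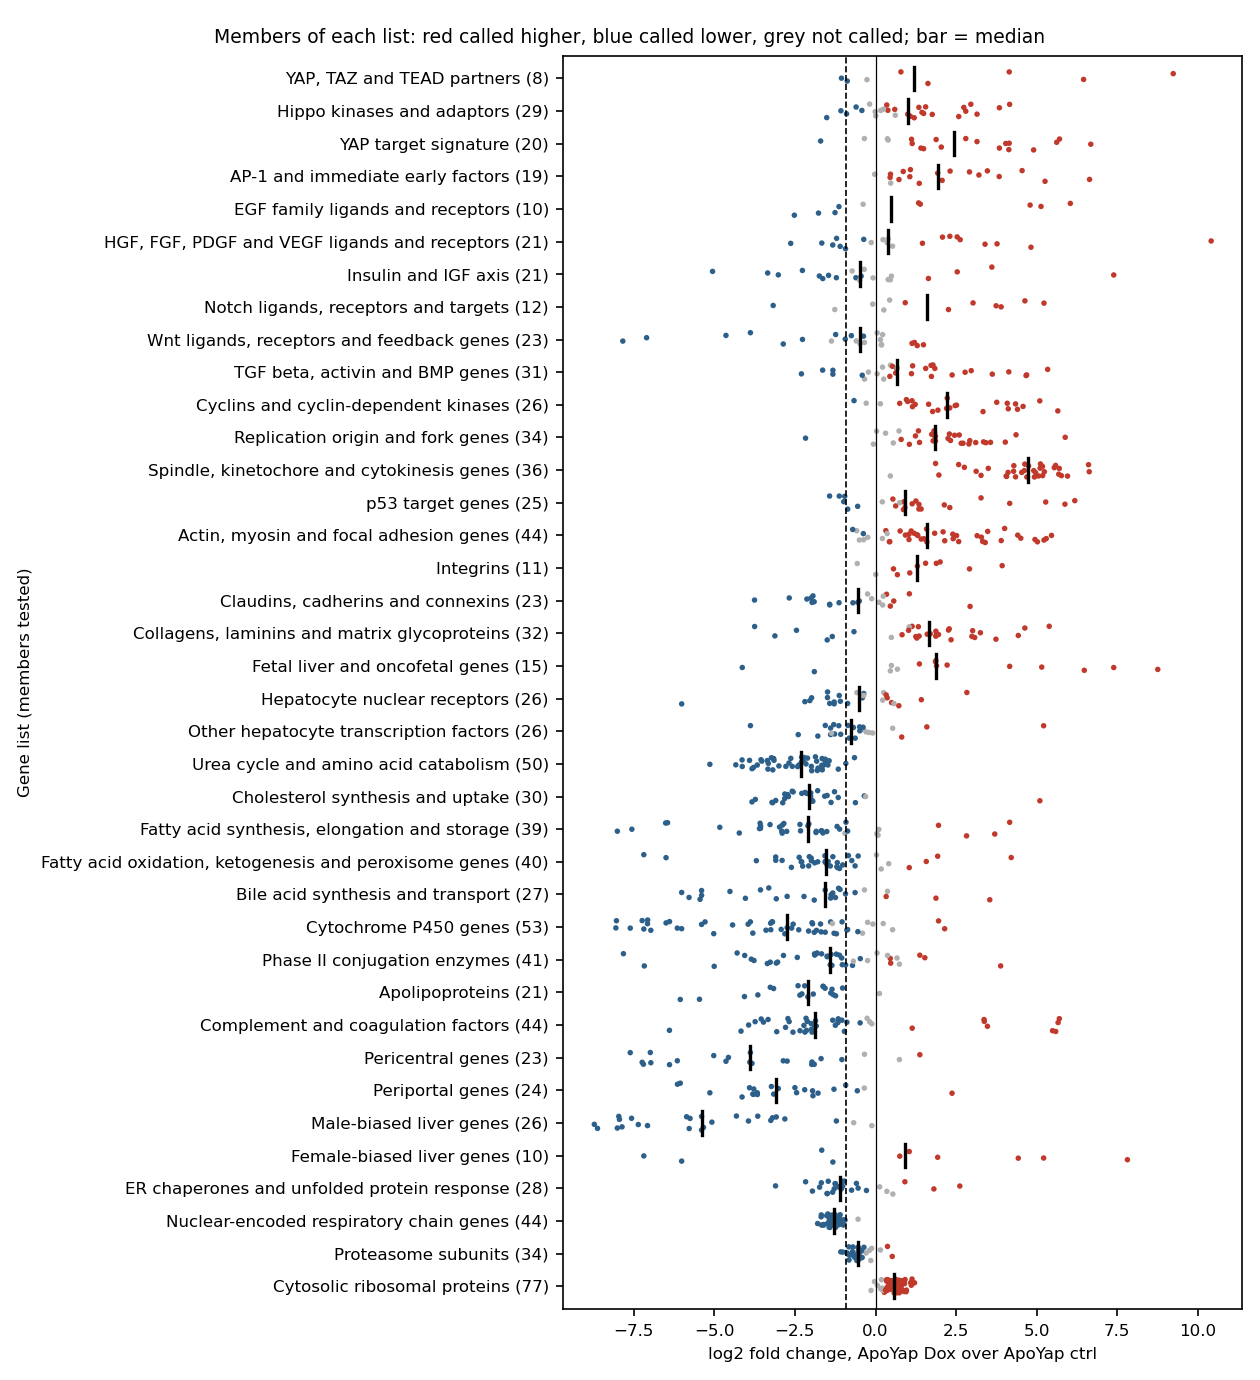
Median log2 fold change of ApoYap Dox over ApoYap ctrl for gene lists, with the members as points coloured by call and the number tested beside each list; bars are medians. Spindle genes lie near 4.7 and P450 genes near −2.7; the dashed line marks where 0 would lie under total counts alone, above which the medians of the nuclear receptor, Wnt and junction lists stand.

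Amino acid catabolism was lower without exception among the tested genes: all 50 tested genes for amino acid breakdown and urea formation fell, with a median of −2.299, and 47 of them also fell with total counts alone. Arg1 stood at 125, 205 and 153 CPM in ApoYap Dox 1 to 3, against 1475, 1446, 1347 and 1501 CPM in ApoYap ctrl 1 to 4. Arginase 1, which releases urea, fell by 3.16 (SE 0.18, adjusted p = 4.9e-08), as did the ornithine carrier Slc25a15 (−3.56), Asl (−3.23) and Got1 (−3.34). Serine synthesis moved the other way. Psat1 stood at 22.7, 24.1 and 12.1 CPM in ApoYap Dox 1 to 3, against 0.434, 0.103, 0.128 and 0 CPM in ApoYap ctrl 1 to 4. Phosphoserine aminotransferase rose by 6.65 (SE 0.46, adjusted p = 2.6e-07), Phgdh by 4.34, the asparagine synthetase Asns by 3.64 and the mitochondrial folate enzyme Mthfd2 by 1.51. Folate enzymes abundant in adult liver fell (Shmt1 (−1.71), Shmt2 (−2.16), Aldh1l1 (−2.67)). The list as a whole thus had 9 up and 7 down of 26, shares near those of all genes (36.9% and 32.8%). Of 21 tested amino acid transporters 9 rose and 9 fell, against 36.9% and 32.8% of all genes. The neutral amino acid carrier Slc38a1 rose by 5.61 and the cationic amino acid carrier Slc7a1 by 4.36, and the hepatocyte carriers Slc38a4 (−1.75) and Slc7a2 (−2.29) fell.

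Glucose metabolism showed a change between isoenzymes, with 11 of 37 tested genes up and 18 down, and 20 higher and 10 lower under total counts alone. Pkm stood at 111, 140.1 and 132 CPM in ApoYap Dox 1 to 3, against 2.87, 3.19, 4.34 and 5.67 CPM in ApoYap ctrl 1 to 4. Pklr stood at 0.353, 0.552 and 0.531 CPM in ApoYap Dox 1 to 3, against 9.296, 6.699, 4.73 and 7.51 CPM in ApoYap ctrl 1 to 4. Pkm is the pyruvate kinase of fetal, dividing and non-parenchymal cells, including macrophages, and Pklr that of the mature hepatocyte, and their log2 fold changes were 5.01 (SE 0.19, adjusted p = 4.7e-09) and −3.89 (SE 0.34, adjusted p = 1.2e-06). The hexokinases Hk1, Hk2 and Hk3 rose by 4.38, 6.09 and 6.09; Hk3 is a leukocyte enzyme. G6pc stood at 23.7, 12.1 and 36.1 CPM in ApoYap Dox 1 to 3, against 1640.3, 2009, 1996 and 1148 CPM in ApoYap ctrl 1 to 4. Glucose-6-phosphatase, the last step of glucose release, fell by 6.15 (SE 0.42, adjusted p = 6.1e-07), as did Pck1 (−2.45) and Fbp1 (−1.505), while the mitochondrial Pck2 rose by 2.04. G6pdx, which opens the pentose phosphate pathway, rose by 2.6003, and the glycogen enzymes Gys2 (−2.92) and Pygl (−2.2003) fell. Their list of glycogen, fructose, galactose and pentose phosphate genes had 6 up and 13 down of 22, and 12 higher and 8 lower under total counts alone.

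Lipid genes fell in each of the lists examined, and under both scalings. Of 30 cholesterol genes 28 fell and 1 rose (median −2.07), of 39 genes of fatty acid synthesis and storage 31 fell and 4 rose (median −2.099), and of 40 genes of fatty acid oxidation 33 fell and 4 rose (median −1.53). Fasn stood at 39.1, 35.7 and 34.5 CPM in ApoYap Dox 1 to 3, against 747, 658, 548 and 779.7 CPM in ApoYap ctrl 1 to 4. Fatty acid synthase fell by 4.23 (SE 0.17, adjusted p = 4.7e-09) with no overlap. Acacb fell by 6.51, as did Scd1 (−4.83), and Thrsp, a lipogenic regulator, (−7.56), whereas the desaturase Scd2 of fetal liver rose by 4.16. In cholesterol synthesis Insig2 fell by 3.83, as did Fdps (−3.21) and Dhcr7 (−2.88); the exporter gene Abcg1, prominent in macrophages, rose by 5.1002. In oxidation Cpt2 (−2.06) and Bdh1 (−3.097) fell, and the acyl-CoA thioesterases Acot1 and Acot2 rose by 1.57 and 4.21. Fabp4, Cd36 and Lpl, which rose by 3.6999, 1.95 and 2.82, are genes of endothelial cells and macrophages.

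Bile acid and drug handling genes were lower. Of 27 tested genes for making and moving bile acids, 22 fell and 3 rose, with a median of −1.56. The canalicular pump Abcb11 fell by 3.31, as did the sinusoidal carriers Slco1b2 (−5.79) and Slco1a1 (−5.399), while the basolateral exporter Abcc4 rose by 3.55. Of 53 tested genes on a list of cytochrome P450 enzymes and their reductase 45 fell and 2 rose (median −2.74). Cyp2e1 stood at 9.53, 12.4 and 7.200 CPM in ApoYap Dox 1 to 3, against 1184, 1906, 1572 and 1227 CPM in ApoYap ctrl 1 to 4. This enzyme of ethanol and acetaminophen oxidation fell by 7.24 (SE 0.29, adjusted p = 5.3e-09). Cyp2a5 fell by 6.39; the listed genes that rose were Cyp4b1 (2.14) and Cyp2a22 (1.96). The list does not hold every P450 gene: Cyp4f18, outside it and chosen after its values were seen, had 261 counts in ApoYap Dox and 2 in ApoYap ctrl, a count ratio of 84.0 (95% interval 23.0 to 697). Near-identical members of the Cyp2c, Cyp4a and Cyp2a clusters can share reads, so single values there are uncertain. Of 41 tested conjugation enzymes 30 fell and 5 rose, among them Sult5a1, which fell by 7.18, and the glutathione transferase Gsta1, up by 3.88.

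Secreted plasma proteins were lower as well. Alb stood at 37420, 33771 and 26602 CPM in ApoYap Dox 1 to 3, against 60894, 70793, 49273 and 66881 CPM in ApoYap ctrl 1 to 4. Albumin fell by 0.93 (SE 0.21, adjusted p = 0.00167), about the size of the shift between scalings, and so its direction rests on the TMM scaling. Of 21 tested genes on the apolipoprotein list, which also holds the hepatic lipase gene Lipc, 20 fell and none rose (median −2.101). Among those that fell were Apoa4 (−6.06), Apoc3 (−3.27) and Lipc (−3.16). Of 42 carrier proteins and serpins 33 fell and 5 rose, and of 44 complement and coagulation genes 33 fell and 8 rose. The factors F9 (−2.79) and F10 (−3.07) fell, and C8g fell by 4.18; the C1q genes, which macrophages make, rose by 5.49 (C1qa), 5.704 (C1qb) and 5.67 (C1qc), and endothelial Thbd and Tfpi by 3.47 and 3.38. Acute phase genes were also mainly lower, 15 of 23 tested: Crp fell by 3.03, as did Lbp (−1.29) and Orm3, one of a set of close copies, (−6.05), and Il1rn and Cd14 rose by 3.37 and 5.201.

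Both ends of the liver lobule had lower levels of their typical transcripts. Of 23 tested pericentral genes 20 fell and 1 rose (median −3.88), and of 24 periportal genes 22 fell and 1 rose (median −3.09). Glul stood at 122, 125 and 208 CPM in ApoYap Dox 1 to 3, against 437, 821, 678 and 456 CPM in ApoYap ctrl 1 to 4. Glutamine synthetase, known from the last cells around the central vein, fell by 1.98 (SE 0.28, adjusted p = 1.1e-04). Lect2 fell by 6.99, as did Ces1f (−7.204). On the periportal side Uroc1 fell by 3.91, as did Etnppl (−3.67) and Cyp2f2 (−3.81), and the exception Ctsc, a protease also of leukocytes, rose by 2.37. Male-biased liver genes fell further: of 26 tested 24 fell, with a median of −5.399. Hsd3b5 stood at 0.485, 0.221 and 0.295 CPM in ApoYap Dox 1 to 3, against 144, 182, 178 and 97.1 CPM in ApoYap ctrl 1 to 4. This steroid dehydrogenase, limited to male mouse liver, fell by 8.73 (SE 0.34, adjusted p = 1.0e-08), as did Elovl3 (−8.01) and Cyp4a12b (−7.08); the major urinary protein genes are near-identical copies and are read here only as a family. Female-biased genes were split, with 6 of 10 tested up and 4 down: Fmo2 rose by 4.43 and Cyp17a1 fell by 6.02. All 4 Y-linked check genes had counts in all 7 libraries.

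Mitochondrial transcripts fell and ribosomal protein transcripts rose. All 8 tested mitochondrially encoded mRNAs fell, with a median of −2.09, and the other 5 of 13 did not pass the filter. Together with the mitochondrial rRNAs and tRNAs, the mitochondrial genes took 9.15 to 12.3% of counts in ApoYap Dox, against 21.5 to 24.8% in ApoYap ctrl. mt-Nd2 stood at 11831, 14626 and 9386 CPM in ApoYap Dox 1 to 3, against 82541, 68633, 62704 and 75294 CPM in ApoYap ctrl 1 to 4. This complex I subunit fell by 2.597. Of 44 nuclear genes of the respiratory chain 43 fell and none rose (median −1.29), among them Sdha (−1.68) and Ndufb9 (−1.797). Of 77 tested cytosolic ribosomal protein genes 70 rose and none fell, though by a median of only 0.58; Rps12 rose by 1.21 and Rps19 by 1.11. Ribosome biogenesis genes had 13 up and 3 down of 32 (median 0.23), led by Nop56 (1.37) and Npm1 (1.23). Their share up was near that of all genes (36.9%), and their share down was below that of all genes (32.8%). Of 34 proteasome subunits 27 fell and 2 rose (median −0.54), but 26 higher and 0 lower under total counts alone, so their direction depends on the scaling. Of 28 genes of endoplasmic reticulum chaperones and the unfolded protein response 22 fell and 3 rose, among those lower Hyou1 (−2.17) and Manf (−1.96); the stress genes Ddit3 (CHOP) and Ppp1r15a rose by 1.81 and 2.62, and total counts alone left 9 higher and 11 lower. Of 34 lysosome genes 21 rose and 7 fell, beside the rise of macrophage markers, with Ctsb up by 1.69 and Hexa by 1.78.

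Genes of macrophages and of leukocyte traffic made up many of the largest rises. Cd5l stood at 2207, 2515 and 3230.4 CPM in ApoYap Dox 1 to 3, against 23.5, 27.3, 53.6 and 59.9 CPM in ApoYap ctrl 1 to 4. CD5L, secreted by Kupffer cells, rose by 6.02 (SE 0.36, adjusted p = 2.6e-07), and its highest value was in ApoYap Dox 3. Timd4 stood at 89.1, 108 and 126 CPM in ApoYap Dox 1 to 3, against 0.869, 0.824, 1.53 and 2.71 CPM in ApoYap ctrl 1 to 4. This receptor for dying cells, a marker of resident Kupffer cells, rose by 6.24. Of 12 tested markers of monocytes and infiltrating macrophages 10 rose, among them Cx3cr1 by 7.13 and Itgam by 7.06, and 1 fell, the fatty acid-binding protein gene Fabp5 (−2.76). Of 34 tested chemokines, cytokines and receptors 31 rose and 2 fell (median 5.39). Ccl2, the monocyte attractant, rose by 5.56, Ccl24 by 6.45, Ccl6 by 6.28 and Cxcl10 by 5.33; Mif (−1.36) and Cxcl12 (−1.03) fell. The anti-inflammatory cytokine Il10 had 458 counts in ApoYap Dox and 1 in ApoYap ctrl, a count ratio of 295 (95% interval 52.7 to 11670). Mmp9, a gelatinase of leukocytes, rose by 7.69. In library share the largest gains included Tmsb4x, C1qb, Ctss and Lyz2, which rose by 5.71, 5.704, 5.94 and 5.84.

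Few genes were called with doxycycline in C57BL/6 mice without the transgenes. In BL/6 Dox against BL/6 ctrl 7 were higher (0.0552% of 12685) and 21 lower (0.166%). These few calls do not show an absence of other change. List medians in that contrast reached −1.11 for stellate, −0.72 for spindle and −0.51 for signature genes, and 0.62 for female-biased genes. Net of that contrast, 3419 genes were higher (27.0%) and 3447 lower (27.2%) with YAP induction. The net counts were 16 up and none down of 20 signature genes, 34 up and none down of 35 spindle genes, 53 up and none down of 77 ribosomal protein genes, none up and 50 down of 50 amino acid catabolism genes, 1 up and 44 down of 54 P450 genes and 21 up of 21 macrophage markers. A few genes fell with doxycycline in both strains. Fst, the activin antagonist, had a log2 fold change of −2.29 in ApoYap and −2.03 in BL/6, and the difference was −0.26 (SE 0.54, adjusted p = 0.71). The clock activator Arntl (BMAL1) had −1.22 in ApoYap and −1.57 in BL/6, with a difference of 0.35 (SE 0.36, adjusted p = 0.43); the chaperone gene Hsp90aa1 had −0.78 and −1.06 in that order, with a difference of 0.28 (SE 0.28, adjusted p = 0.42). These misses do not show equal responses. Others moved in opposite directions. Bmp4 had 1.73 in ApoYap and −1.31 in BL/6, a difference of 3.04 (SE 0.27, adjusted p = 3.6e-08), and the phosphatase gene Dusp1 had 1.51 in ApoYap and −1.62 in BL/6, a difference of 3.13 (SE 0.39, adjusted p = 8.6e-06). The transaminase Got1 had −3.33 in ApoYap and 0.67 in BL/6, a difference of −3.998 (SE 0.19, adjusted p = 8.8e-12). For Sox9, which fell in BL/6 by 1.06, the difference was 0.98 (SE 0.29, adjusted p = 0.00735). Arntl, Hsp90aa1 and Dusp1 were chosen after their values were seen.

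Loss of the kinases LATS1 and LATS2 also frees endogenous YAP and TAZ, and the difference between the contrasts was tested in 1 fit of the 14 libraries. It was positive for 1562 genes (12.1% of 12942) and negative for 2426 (18.7%); with total counts alone it was 3720 and 1134. In Lats1/2 KO against Lats1/2 flox ctrl itself, 2804 genes were higher (21.7%) and 1983 lower (15.3%). Strain, vector and controls differ between the contrasts and cannot be told apart from the kind of activation. Known direct targets did not pass the test of the difference: Ccn2 had 6.69 with YAP and 6.54 with Lats1/2 loss, a difference of 0.14 (SE 0.46, adjusted p = 0.85), and Ccn1 had 4.16 with YAP and 3.61 with Lats1/2 loss, a difference of 0.55 (SE 0.40, adjusted p = 0.33). Of the 20 signature genes 3 differed upward and 3 downward. Lats2, deleted in 1 of the models, had 1.501 with YAP and −0.101 with Lats1/2 loss and differed by 1.602 (SE 0.28, adjusted p = 6.9e-04); Lats1 stood at −1.64 in Lats1/2 KO (adjusted p = 1.4e-05), and counts at the 3′ end need not cover the deleted part of either gene, so they are no check of the deletion. Spindle genes had a median of 4.73 in both contrasts, with 1 positive and 3 negative differences of 36. Mki67 differed by 0.59 (SE 0.73, adjusted p = 0.59), which does not show equal levels.

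Mature liver functions differed between the contrasts. Amino acid catabolism had a median log2 fold change of −2.29 with YAP and −0.84 with Lats1/2 loss, and 45 of 50 differences were negative. Cholesterol genes had −2.07 and −0.57 in that order (25 of 30 negative), P450 genes −2.74 and −0.65 (36 of 55 negative) and pericentral genes −3.88 and −1.16 (14 of 23 negative). With total counts alone the same lists kept 37, 21, 34 and 13 negative differences. Cyp2e1 had −7.24 with YAP and −1.74 with Lats1/2 loss, a difference of −5.495 (SE 0.77, adjusted p = 2.7e-04). Nr0b2 had −6.01 with YAP and −0.599 with Lats1/2 loss, a difference of −5.42 (SE 0.50, adjusted p = 9.7e-06), and Hnf4a −1.28 with YAP and −0.59 with Lats1/2 loss, a difference of −0.68 (SE 0.19, adjusted p = 0.0122). Total counts alone moved the median difference of all genes from −0.03 to 0.46, so the size of the Hnf4a difference rests on the scaling. Of 27 nuclear receptor genes 9 differences were negative, and 4 with total counts alone. Hsd3b5 differed by −6.702 (SE 0.93, adjusted p = 2.9e-04). G6pc differed by −4.897 (SE 0.65, adjusted p = 1.7e-04). Glul, by contrast, had −1.97 with YAP and −2.57 with Lats1/2 loss, and its difference was 0.599 (SE 0.53, adjusted p = 0.43). Among genes that rose, Psat1 had 6.65 with YAP and 1.81 with Lats1/2 loss, a difference of 4.85 (SE 0.71, adjusted p = 1.6e-04), and Asns 3.65 with YAP and 0.12 with Lats1/2 loss, a difference of 3.54 (SE 1.06, adjusted p = 0.0204). Gpc3 had 8.76 with YAP and 6.48 with Lats1/2 loss and differed by 2.29 (SE 0.71, adjusted p = 0.0259). Sox9 had −0.08 with YAP and 1.31 with Lats1/2 loss, a difference of −1.39 (SE 0.49, adjusted p = 0.0484). Egfr had −1.25 with YAP and 0.44 with Lats1/2 loss, a difference of −1.69 (SE 0.49, adjusted p = 0.0202). Mouse Yap1 had −1.05 with YAP and −0.295 with Lats1/2 loss, a difference of −0.76 (SE 0.17, adjusted p = 0.00342). With total counts alone the differences of Sox9 and Yap1 were not called.

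Ribosomal protein genes had a median of 0.59 with YAP and −0.02 with Lats1/2 loss, and 62 of 77 differences were positive. Of 44 actin and focal adhesion genes 17 differed upward and 2 downward, and of 34 lysosome genes 19 differed upward. Macrophage markers had medians of 5.61 and 2.81 with 20 of 21 differences positive. In Lats1/2 KO against Lats1/2 flox ctrl itself, 21 of 21 macrophage markers and 32 of 44 actin and focal adhesion genes were called higher. Lysosome genes had 3 higher and 5 lower of 34 there, and ribosomal protein genes 3 higher and 1 lower of 77. The part of macrophages in these lists was not tested. Hepatocyte markers had medians of −1.98 with YAP and −0.76 with Lats1/2 loss, and 12 of 15 differences were negative, and 9 with total counts alone. Endothelial markers had 2.97 and 2.42 with 1 positive difference of 21. Stellate markers had 1.14 with YAP and 2.56 with Lats1/2 loss, and 7 of 19 differences were negative, against 2 negative and 1 positive with total counts alone.

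**Figure D5:**
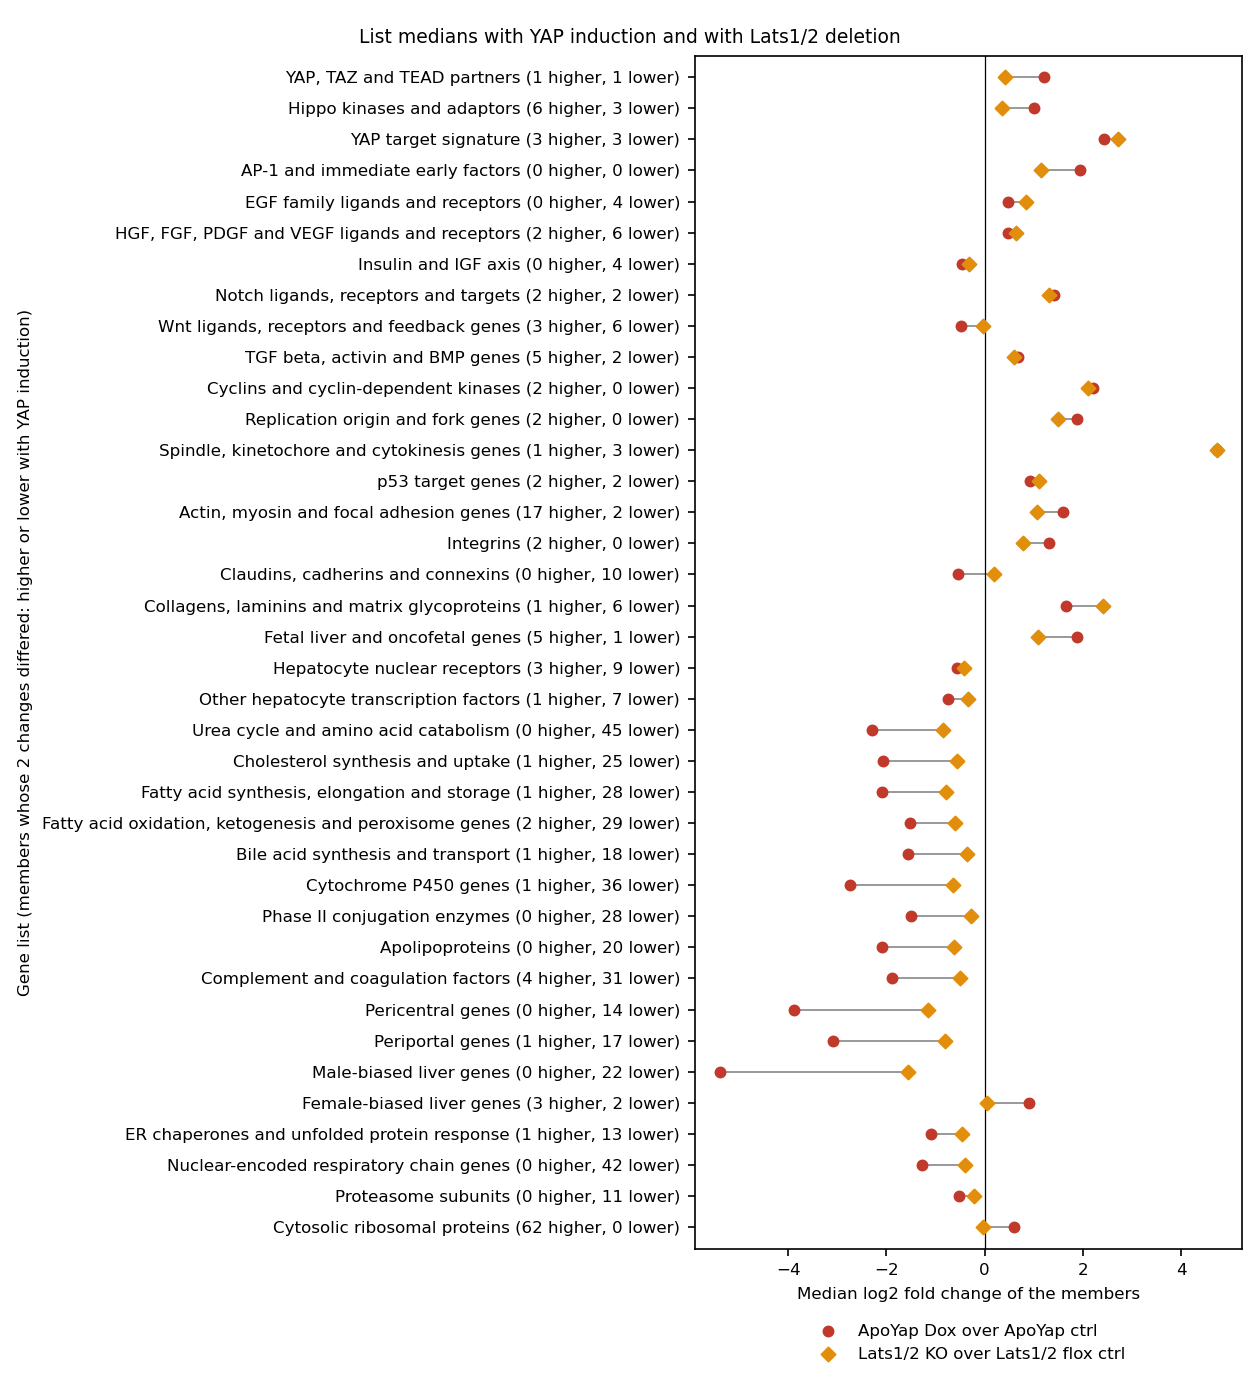
Median log2 fold change of each gene list with YAP induction (circles, ApoYap Dox over ApoYap ctrl) and with Lats1/2 loss (diamonds, Lats1/2 KO over Lats1/2 flox ctrl), with the number of members whose difference was called in each direction beside the list. Spindle genes lie together at 4.73, and amino acid catabolism lies at −2.29 with YAP and −0.84 with Lats1/2 loss.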

How the data were processed

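The assay was 3′ end RNA sequencing (QuantSeq 3′ FWD, per the labels' protocols), in which a gene's count does not grow with its length. Per the submitters' processing notes, reads went through FastQC, cutadapt and STAR 2.6.1d against mm10/GRCm38. The authors deposited raw counts per gene for all libraries. No source used here names the counting tool, the annotation or the strand setting, so overlapping, antisense and near-identical genes are uncertain. Genes with enough counts (edgeR's filterByExpr, minimum count 10 and total 15) were tested in the 7 ApoYap libraries with edgeR 4.0.16 in R 4.3.3 (TMM scaling, robust quasi-likelihood test, Benjamini-Hochberg adjusted p under 0.05). CPM values are scaled by TMM except where called unscaled. Differences of contrasts were fitted in 15 libraries (BL/6) and 14 libraries (Lats1/2). Total counts alone, DESeq2 1.42.0, limma 3.58.1, other filters, a replicate block and leaving out each library were tried. Genes with 3 or fewer counts in a group are given as ratios with exact 95% counting intervals, or bounds against 3 counts over the group, which cover counting error only. Scripts were tested on simulated counts.

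The members and gene lists were chosen with earlier results of these data known. Named genes were the 15 largest called folds in each direction, the 10 largest gains and losses of library share, the 6 largest differences of contrasts each way, up to 6 members of each list by p and exceptions, all members of the TEAD, Hippo, signature and EGF lists, and a few fixed genes. Arntl, Dusp1, Glul, Hes1, Hsp90aa1, Mdm2 and Nr4a1, and the near-0 genes below the filter, were chosen after their values were seen. Some genes that the rule names are not reported here.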

Additional observations from a re-analysis of the deposited data

Results flagged for a closer look

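In the 4 ApoYap ctrl libraries, a library lay far from the other 3 in 2 of 43 genes and marker sums examined. That is about the rate of 1 in 20 that chance gives, although these measures share the same libraries. The 2 were ApoYap ctrl 4 for Yap1, at 57.7 CPM, and ApoYap ctrl 3 for the neutrophil marker sum, at 1.53 unscaled CPM. Other groups were not examined in this way. The difference of log2 fold changes between YAP induction and Lats1/2 loss passed the test of the difference itself for these named genes: 3.54 for Asns, −5.495 for Cyp2e1, −1.69 for Egfr, −4.897 for G6pc, 2.29 for Gpc3, −0.68 for Hnf4a, −6.702 for Hsd3b5, 1.602 for Lats2, −5.42 for Nr0b2, 4.85 for Psat1, −1.39 for Sox9 and −0.76 for Yap1. Between YAP induction and doxycycline in BL/6 it was 3.04 for Bmp4, 3.13 for Dusp1, −3.998 for Got1 and 0.98 for Sox9. For the differences from Lats1/2 loss, the calls for Sox9 and Yap1 were not made with total counts alone.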

How the results depend on the processing

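With total counts alone in place of TMM, 8713 genes were higher and 1621 lower in ApoYap Dox against ApoYap ctrl; all 4698 genes called higher and 1621 of the 4174 called lower kept their call, and 791 called lower became higher. In the same setting the counts were 7353 higher and 1395 lower net of doxycycline, and 3720 and 1134 for YAP induction less Lats1/2 loss. These shifts follow from the scaling factors themselves. Stricter calls lowered the counts by construction: a test against a fold of 1.5 left 2678 lower genes, and a log2 fold change of at least 1 left 2327; for the difference from Lats1/2 loss the fold test left 637 higher and 1094 lower, a log2 fold change of at least 1 left 1040 and 1390, and an adjusted p under 0.01 left 737 and 1531. Leaving out each library in turn gave 4392 to 4613 higher and 3901 to 4026 lower genes with YAP induction, 3113 to 3540 and 3186 to 3618 net of doxycycline, and 1119 to 1859 and 1932 to 2463 less Lats1/2 loss. BL/6 Dox 1 and 2 together were left out after seeing the data (3359 higher and 3535 lower), as was scaling without marker genes of other cells (4726 and 4141). With the replicate number as a block the counts were 4571 and 4077, 3370 and 3335, and 1335 and 2215 in those 3 comparisons; same-numbered ApoYap libraries correlated at 0.102, 0.0502 and 0.137, so the numbers are not taken to pair them. DESeq2 gave 4707 higher and 4094 lower genes and limma voom 4891 and 4299. Direction turned in named genes near 0. With total counts alone the log2 fold change was 0.000817 for Alb, 0.54 for Btc, 0.58 for Dock5, 0.12 for Hsp90aa1, 0.497 for Lats1, 0.0353 for Mob1b, 0.22 for Rdx, 0.84 for Sox9, 0.0442 for Tead3 and 0.66 for Vgll4. A further 12 named genes, Fgfr4 among them, kept their direction and lost their call in that setting. Sox9 also lay above 0 with limma voom (0.05196), with the replicate block (0.02600) and without ApoYap Dox 2 or ApoYap ctrl 4 (0.00907 and 0.0488), and Arhgef17 below 0 with limma voom (−0.0516) and without ApoYap Dox 3 (−0.102); over single libraries left out Sox9 ranged over −0.26 to 0.0488 and Arhgef17 over −0.102 to 0.64, and the cause was not tested. Of the lists described, medians that turned with total counts alone were 0.44 for insulin and IGF, 0.43 for Wnt, 0.37 for junction, 0.41 for nuclear receptor, 0.17 for other hepatocyte factor, 0.57 for glucose, 0.43 for glycogen and sugar, 0.68 for NRF2, 0.49 for heat shock, 0.0874 for circadian, 0.33 for iron and 0.39 for proteasome genes, and the EGF family median was −1.19 when genes needed 10 CPM in 3 libraries, a filter that drops its low members.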

Other observations

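Gene groups not described above moved in part. Of 33 interferon-stimulated genes 23 rose and 4 fell (median 0.76): the transcription factors Irf8 and Irf7 rose by 4.16 and 2.87, Oas1a by 4.19 and Gbp2 by 3.57, while the class I antigen gene H2-K1 fell by 1.29. Of 14 tubulin genes and tubulin regulators 6 rose and 5 fell (median 0.12), shares near those of all genes (36.9% and 32.8%). Tuba1b and Tubb5, used by dividing cells, rose by 2.66 and 1.49, the tubulin-binding protein gene Stmn1 by 3.91, and Tuba4a fell by 2.71. Of 29 iron, heme and copper genes 6 rose and 15 fell (median −0.59), with 13 higher and 8 lower under total counts alone. The iron exporter Slc40a1 and the heme oxygenase Hmox1, both prominent in Kupffer cells, rose by 3.88 and 3.22, and the hepatocyte regulators of hepcidin Tmprss6 (−2.33) and Tfr2 (−1.9002) fell.

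Of 25 NRF2 antioxidant genes 9 rose and 12 fell, with 16 higher and 5 lower under total counts alone. The plasma glutathione peroxidase Gpx3 and the carbonyl reductase Cbr3 rose by 5.83 and 5.3996, and catalase (Cat) (−2.08), Sod1 (−1.53) and Gclc (−1.601) fell. Of 18 circadian clock genes 3 rose and 9 fell, with 8 higher and 5 lower under total counts alone: the repressors Per1 and Per3 rose by 2.26 and 1.698, and Cry1 (−2.89) and Nfil3 (−2.39) fell. Of 23 heat shock genes 2 rose and 12 fell, with 12 higher and 5 lower under total counts alone; Hspa1a rose by 2.98 and the mitochondrial chaperone Hspd1 fell by 1.45. The labels do not give the hour of collection, and the part of it in the clock genes was not tested.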
